A study of Mus musculus with 12 samples.

Results

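The nuclear genes of oxidative phosphorylation are those chromosomal genes that code for subunits of the respiratory chain and ATP synthase of mitochondria. They were taken from the deposited gene table by symbol: names of complex I subunits (Nduf followed by a, b, c, s or v and a number), complex II (Sdha to Sdhd), complex III (Uqcr), complex IV (Cox4 to Cox8 followed by a, b or c) and complex V (Atp5). The Cox4 genes, named Cox4i1 and Cox4i2, did not match and are outside the members, the summed levels and the shares by complex. Of 31053 genes, 82 entries matched and 79 had 30 or more unique molecular identifiers (UMIs, 1 per captured RNA molecule) summed over the 3 deposited matrices. The members are 37 genes named for complex I, 4 for complex II, 8 for complex III, 14 for complex IV and 16 for complex V. The members were chosen by name and by these summed UMIs, which are a description only. Just inside the limit were Cox8b with 59 UMIs, Cox7a1 with 200 and Cox6a2 with 378. Just outside were Cox7b2 with 7 UMIs, Cox8c with 1 and a second Atp5o entry with 0, which overlaps the measured Atp5o gene on chromosome 16.

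Oxidative phosphorylation passes electrons from NADH (complex I) and succinate (complex II) through complexes III and IV to oxygen, and the proton gradient so built drives ATP synthesis by complex V. The complexes, other than complex II, are built from subunits encoded in the nucleus together with subunits encoded by mitochondrial DNA, the mt- genes. Among leukocytes, neutrophils are known for few mitochondria and a strong reliance on glycolysis, and proliferating cells for raised mitochondrial biogenesis.

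The study, titled for the part of mononuclear phagocytes in fibrosis of post-transplant obliterans bronchiolitis, deposited single-cell 3' RNA sequencing (10x Chromium, version 3 chemistry) of mouse cells. Spleen, native trachea and transplanted trachea (the tracheal allograft) gave 4 samples each, 12 in all. By their labels, the tracheal cells are mesenchymal progenitors and the others splenocytes, with no stated strain, sex, age, time point or treatment. Each source came as 1 matrix without a key from cells to samples, so each is 1 pooled library, no difference could be tested, and the spread between samples is unknown. Every interval below is a 95% interval for counting error only.

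The allograft, native and spleen matrices held 4611, 4626 and 4856 barcodes with 26503045, 31415458 and 28318436 UMIs. The cells used numbered 3864, 4115 and 4570, and their median UMIs per cell were 4965, 6526 and 4428.5. Doublets called and removed were 31, 43 and 9, or 0.672%, 0.930% and 0.185% of barcodes against 3.69%, 3.70% and 3.88% expected, so most of the doublets expected were left in. The libraries shared 4 to 7 barcodes pairwise. Each cell was placed in the class with the most detected markers of 8 when these were 3 or more and led every other class. Of the allograft and native cells, 2200 and 1845 fell in the macrophage class (C1qa, Csf1r, Adgre1 and others), and only 39 and 947 in the fibroblast class (Col1a1, Dcn and others), against the label of mesenchymal progenitors. A class cut from a marker count is a range of cells, not a type. In the macrophage class 157 allograft cells (7.14%), 118 native cells (6.40%) and 22 spleen cells (26.2%) lay at the limit. In the native dendritic class 49 of 69 cells (71.0%) did, and cells of the classical monocyte class also carried a median of 3 to 4 macrophage markers. Free RNA can add UMIs of these widely expressed genes to every droplet, and its part in the values below was not tested.

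Promoters of 67 members were found in RefSeq (mouse build GRCm38.p6, 250 bases before to 50 bases after the start) and 12 had no entry. The 10-letter motif of nuclear respiratory factor 1 (NRF1, a regulator of respiratory genes), searched on both strands, was in the promoters of 17 of the 67 members (25.4%) and of 5.19% of 27025 genes. The letters AAGATGGC, for YY1, were in 10 (14.9%) against 3.19%, and CCGGAAGT, for ETS factors, in 5 (7.46%) against 4.31%. In all, 30 members (44.8%) held at least 1 of the 3 against 11.7% of genes. The number of CpG dinucleotides, taken per gene from the promoter with the most, had a median of 19 for the members and 8 for all genes. The part of CpG content in the motif shares was not tested. A match is a run of letters and not a shown binding site. The promoters below were chosen after values were seen. Sdhd, the small membrane anchor of complex II, holds the NRF1 motif once, and Ndufb4, an accessory complex I subunit, holds it 3 times, as many as Sdha and more than any other member. Cox5a and Ndufa4 stood at opposite ends of the macrophage comparison below, and neither window holds any of the 3 motifs. Capitals mark the NRF1 motif. The windows are chr9:50603800-50604099 (minus strand) for Sdhd, chr16:37654319-37654618 (minus) for Ndufb4, chr9:57520982-57521281 (plus) for Cox5a and chr6:11907401-11907700 (minus) for Ndufa4.
Sdhd: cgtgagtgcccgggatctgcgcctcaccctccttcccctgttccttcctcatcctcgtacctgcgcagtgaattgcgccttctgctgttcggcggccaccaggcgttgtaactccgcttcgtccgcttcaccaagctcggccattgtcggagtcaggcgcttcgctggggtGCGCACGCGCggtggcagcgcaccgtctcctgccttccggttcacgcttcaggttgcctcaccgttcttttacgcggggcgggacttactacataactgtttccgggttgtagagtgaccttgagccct
Ndufb4: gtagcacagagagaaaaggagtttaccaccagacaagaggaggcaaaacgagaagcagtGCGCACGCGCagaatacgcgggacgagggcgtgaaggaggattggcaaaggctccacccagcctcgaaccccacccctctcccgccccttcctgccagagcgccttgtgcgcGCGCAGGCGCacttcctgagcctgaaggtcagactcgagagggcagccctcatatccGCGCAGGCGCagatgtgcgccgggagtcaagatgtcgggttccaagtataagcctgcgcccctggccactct
Cox5a: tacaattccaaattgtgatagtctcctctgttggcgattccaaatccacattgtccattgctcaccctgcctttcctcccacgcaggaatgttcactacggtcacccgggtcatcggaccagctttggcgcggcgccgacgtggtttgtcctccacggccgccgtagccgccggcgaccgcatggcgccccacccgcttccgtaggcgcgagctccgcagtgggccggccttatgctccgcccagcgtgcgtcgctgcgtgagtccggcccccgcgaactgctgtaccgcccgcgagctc
Ndufa4: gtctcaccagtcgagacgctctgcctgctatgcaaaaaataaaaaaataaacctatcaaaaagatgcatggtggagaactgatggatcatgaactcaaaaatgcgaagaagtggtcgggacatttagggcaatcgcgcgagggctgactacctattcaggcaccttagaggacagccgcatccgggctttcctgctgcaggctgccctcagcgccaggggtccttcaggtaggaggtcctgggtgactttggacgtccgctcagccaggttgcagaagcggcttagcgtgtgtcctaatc

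Levels are given in CPM: the UMIs of a gene were summed over the cells of a class in a library, divided by all UMIs of those cells and scaled to a fixed total. UMIs were taken at the 3' end and not scaled by gene length, so levels are compared between cells and not between genes. A class with 50 or more cells in a library was described, which gave 20 pairs of class and library. The summed level of the 79 genes was highest in the spleen erythroid class, a set of red cell precursors with globin and Klf1 transcripts, at 31330 CPM (31074 to 31587). The native T class followed with 19323 CPM (19090 to 19558) and the spleen classical monocyte class with 18857 (18510 to 19209). Of the 84 cells in that monocyte class, 13 held genes of plasmacytoid dendritic cells, by a gate explained below. At the low end stood the neutrophil classes of allograft and native trachea, with 7637 CPM (7476 to 7801) and 9057 CPM (8909 to 9206), below spleen plasma cells with 10807 and spleen neutrophils with 11657. Without a few cycling cells, a gate explained below, spleen neutrophils also stood below plasma cells. The other 13 pairs lay between 13078 CPM, in native B cells, and 18236 CPM, in spleen natural killer (NK) cells, and several neighbours in that order, such as native dendritic cells (13944) and native fibroblasts (13953), did not differ beyond counting error.

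**Figure D1:**
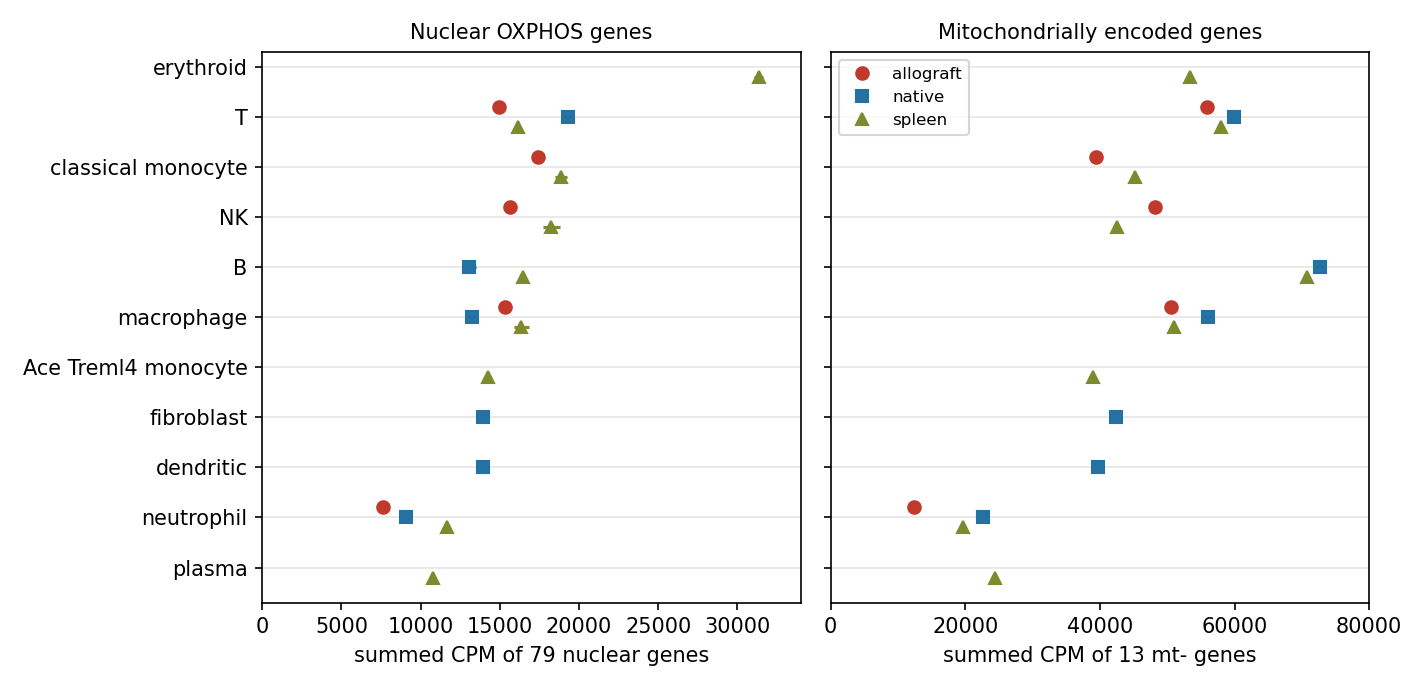
Summed CPM of the 79 nuclear genes (left) and of the 13 mitochondrially encoded genes (right) in each class with 50 or more cells, by library. Bars, drawn on the left only, are 95% Poisson intervals, mostly hidden by the symbols. The erythroid class stands alone at 31330 CPM on the left, while neutrophils of all 3 libraries and plasma cells are lowest on both sides.

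The same order did not hold for the 13 mt- genes. They were highest in B cells, at 72709 CPM in native trachea and 70749 CPM in spleen, and stood at 53362 CPM in the erythroid class. Neutrophils were low here as well, with 12321 CPM in the allograft, 22662 in native trachea and 19590 in spleen, as were plasma cells with 24462. The filter removed cells above 20% mitochondrial UMIs and so bounds the mt- genes directly. As a share of each cell's UMIs, the median for the nuclear genes was 3.12% in erythroid cells. It was 1.29%, 1.20% and 1.68% in the macrophage class of allograft, native trachea and spleen, and 0.677%, 0.733% and 0.896% in neutrophils. Neutrophils were shallow, with medians of 1709.5, 1979 and 2404 UMIs per cell, and erythroid cells deep, with 31304.5. Of the 60 erythroid cells 58 met the cycling gate (3 or more of 8 proliferation genes such as Mki67 and Top2a), so that class had too few other cells for a separate value.

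Complexes kept similar shares of the summed level in most classes. In allograft macrophages complex I genes made up 29.9%, complex II 2.66%, complex III 11.2% and complex V 31.3%, the rest being complex IV. Cox4i1, a complex IV gene outside the name pattern, had 828 CPM in these cells and is not in these shares. The complex I share was highest in plasma cells (37.8%) and native fibroblasts (34.8%). Ndufa1, a small membrane subunit of complex I, stood at 324 CPM in plasma cells against 85.1 to 203 CPM in the other 19 pairs. Allograft neutrophils had the highest complex IV share (30.8%) and the lowest complex III share (9.47%).

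Members differed in how far their own level ranged over the 20 pairs. Among 73 members detected in every pair the median ratio of the highest to the lowest pair was 5.44. The narrowest was Atp5e, the epsilon subunit of the ATP synthase, from 409 CPM in allograft neutrophils to 901 CPM in spleen NK cells (2.21-fold). Ndufa2 (2.29-fold), Ndufa7 (2.64-fold), Uqcrq (2.71-fold) and Ndufa13 (2.73-fold) were also narrow. The widest was Ndufa5, a peripheral-arm subunit of complex I, from 14.3 CPM in allograft neutrophils to 278 CPM in erythroid cells (19.4-fold). Atp5g1, a gene for the membrane c-ring of the ATP synthase, followed at 18.5-fold, then Ndufc2 at 17.0-fold, Ndufv1 at 15.8-fold and Ndufa11 at 13.7-fold. Each of these 5 was highest in the erythroid class and lowest in allograft neutrophils. Their allograft neutrophil levels rested on 16, 63, 22, 15 and 17 UMIs in the same order, so the order of these folds is uncertain. Of these 73 members 62 were highest in erythroid cells, where 22.6% of all genes detected in every pair were. A neutrophil class was the lowest for 57 of the 73 (32.2% of genes), and for 50 it was that of the allograft (16.6%). The other 6 members had no UMI in at least 1 pair and are left out of these counts.

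**Figure D2:**
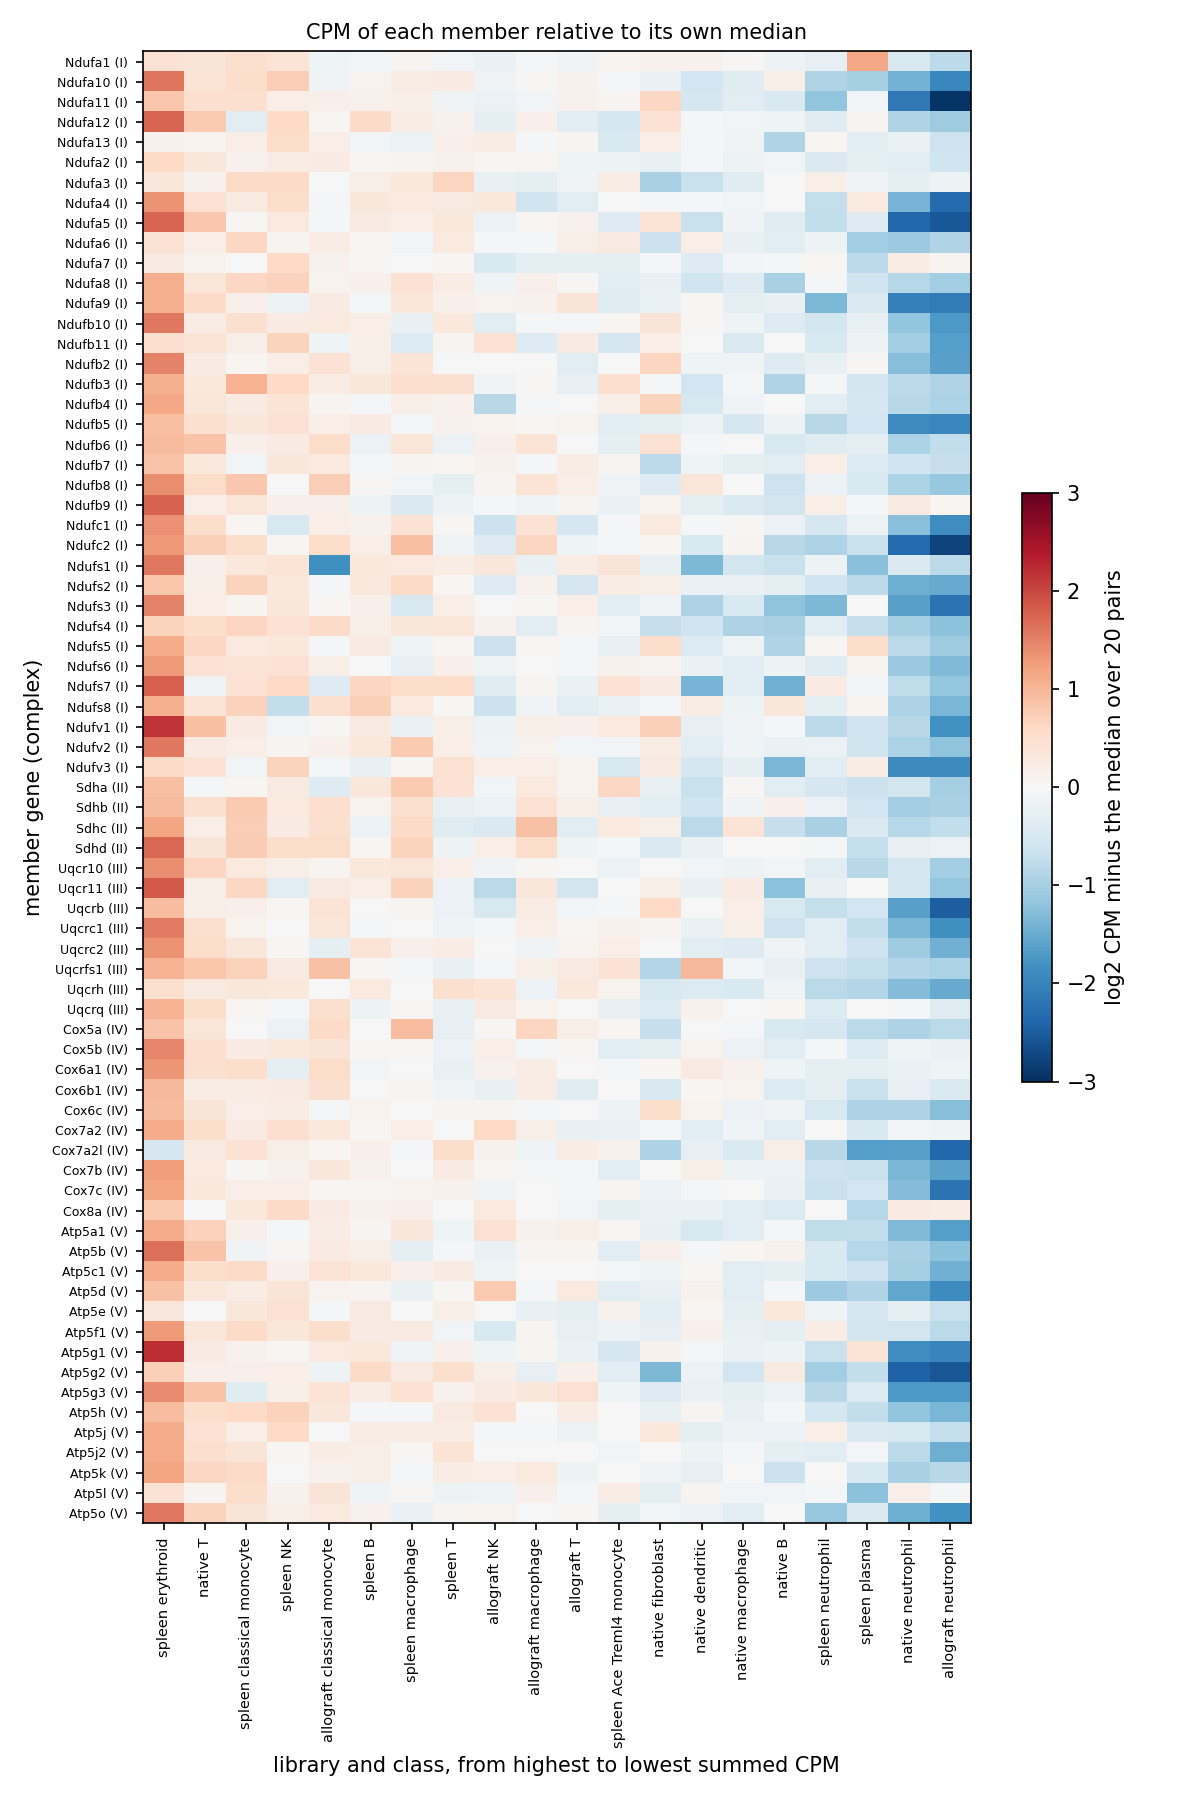
Each of 73 members (rows, complex in brackets) in 20 pairs of class and library (columns, ordered by summed CPM), coloured by log2 CPM minus the member's own median over the pairs. The erythroid column is red for nearly every row and the columns of trachea neutrophils are blue, while rows such as Ndufa7, Ndufb9 and Cox8a stay pale or red there.

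The neutrophil class could be set against the macrophage class within each library, a comparison that does not cross libraries. The members were lower in neutrophils, with a median log2 ratio of -1.32 in the allograft, -0.79 in native trachea and -0.58 in spleen. The medians over all genes measured (30 or more UMIs in both sets together) were -0.63, -0.55 and -0.28, so the members lay below a general shift in the same direction. Lower by 1.5-fold or more were 65 of 78 measured members in the allograft, 49 of 76 in native trachea and 35 of 73 in spleen. Of all genes measured, 51.2%, 48.8% and 37.2% were lower by that much. Higher by 1.5-fold were 0, 1 and 1 members, against 21.2%, 21.1% and 22.0% of genes. The summed ratio was 0.498 (0.488 to 0.509), 0.685 (0.674 to 0.697) and 0.712 (0.690 to 0.736). Neutrophils held fewer UMIs than macrophages in the allograft and native libraries, and the part of depth in these ratios was not tested. The spleen neutrophil values include a few cycling cells that raise the summed level, as given below with the comparison to trachea.

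Single members did not share that difference equally. Ndufc2, a membrane-arm subunit of complex I, had 19.7 CPM in neutrophils and 211.5 CPM in macrophages of the allograft (ratio 0.0953, 0.0583 to 0.141). It had 27.7 and 145 CPM in native trachea (0.193) and 71.6 and 256.5 CPM in spleen (0.279), and was the lowest in each library among members with 100 or more UMIs. Ndufa11, another membrane-arm subunit, had ratios of 0.142, 0.287 and 0.390. Uqcrb, which binds ubiquinone in complex III, had 0.156, 0.283 and 0.569. Against these, Ndufb9 was at or above the macrophage level, with 233 against 207 CPM in the allograft, 270.6 against 166 in native trachea and 259 against 165 in spleen, ratios of 1.13 (0.988 to 1.28), 1.63 (1.47 to 1.81) and 1.56 (1.16 to 2.16). Ndufa7 had ratios of 1.30, 1.24 and 1.04, the last with an interval that included 1. Cox8a, a small subunit of complex IV, had 813 and 831 CPM in neutrophils of the allograft and native trachea and 695 in spleen, against 697, 563 and 782 CPM in macrophages. Without cycling cells, spleen neutrophils had 40.5 CPM of Ndufc2, 32.2 of Ndufa11 and 77.4 of Uqcrb. They then had 233 CPM of Ndufb9, 208 of Ndufa7 and 659 of Cox8a. The ratios to spleen macrophages were not recomputed without these cells. Of 73 members measured in all 3 libraries, 61 were below the macrophage level in each, as were 40.6% of genes. In each library 2, Ndufb9 and Ndufa7, were above it, as were 23.9% of genes.

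**Figure D3:**
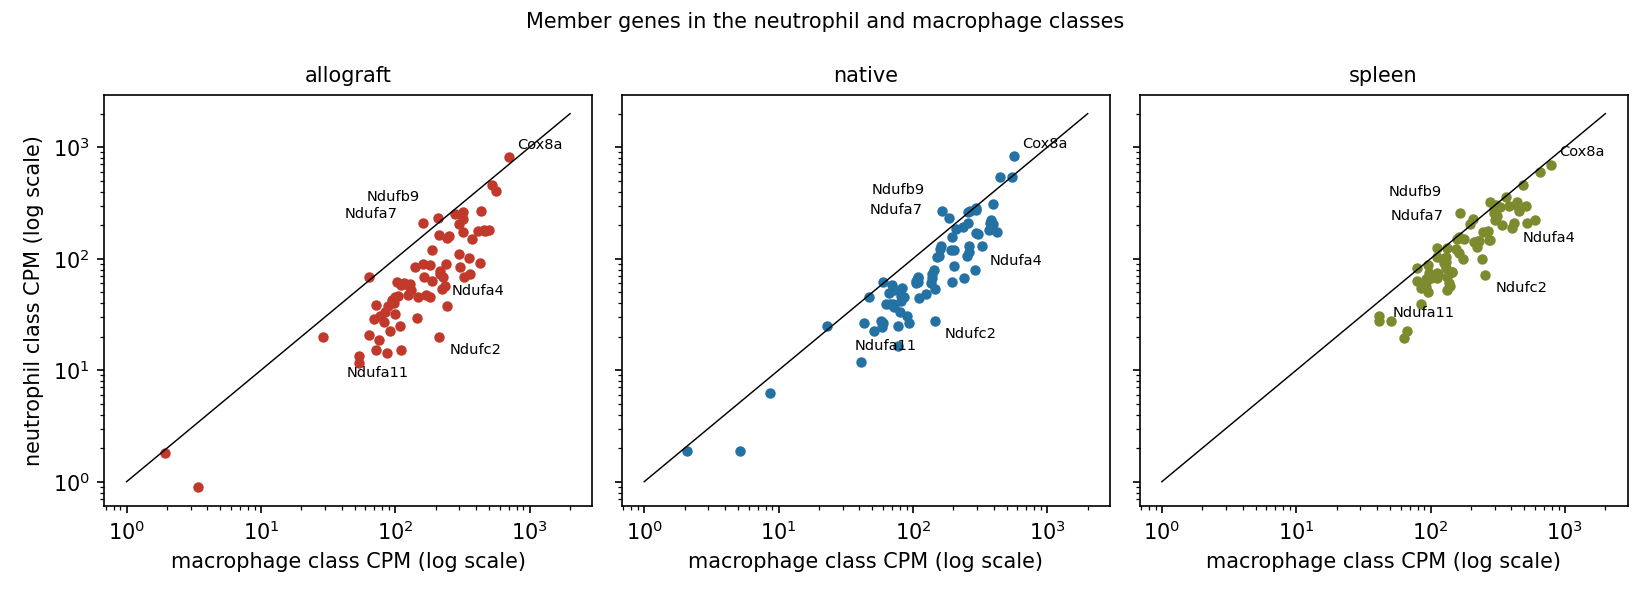
CPM of each measured member in the neutrophil class (vertical) and the macrophage class (horizontal) of the same library, log axes, 1 point per gene; the line marks equal CPM. Most points lie under the line in all 3 libraries, Ndufc2 and Ndufa11 far under it, while Ndufb9 and Ndufa7 lie on or above it.

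In the macrophage class most members were somewhat higher in the allograft than in native trachea. The summed level was 15324 CPM (15266 to 15382) in the allograft, 13218 (13155 to 13281) in native trachea and 16360 (15916 to 16812) in spleen. The allograft to native ratio of the sums was 1.16 (1.15 to 1.17), and the mt- sum went the other way, at 50516 against 56005 CPM (0.902). Over 78 measured members the median log2 ratio was 0.25, and over all genes measured 0.11. Of the 78 members 73 were above 1, against 59.7% of genes. Higher by 1.5-fold or more were 5 members (15.2% of all genes were) and lower 2 (12.8%), a smaller share than among all genes. With scaling by the median of ratios, which sets the all-gene median from 0.11 to 0, the split was 2 higher and 3 lower and the median 0.14. By complex the medians were 0.24 for I, 0.50 for II, 0.15 for III, 0.13 for IV and 0.28 for V.

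Cox5a, a nuclear subunit of cytochrome c oxidase (chr9:57521274-57532426, plus strand, GRCm38), had 497.8 CPM in allograft macrophages, 304.8 in native and 601.7 in spleen macrophages. Its allograft to native ratio was 1.63 (1.57 to 1.70). The 4 genes of complex II, the enzyme that also serves the citric acid cycle, were all higher in the allograft. Sdhd had 102 against 69.5 CPM (1.47, 1.36 to 1.60) and Sdhb, the iron-sulphur subunit, 124.5 against 86.3 CPM (1.44, 1.34 to 1.55). Sdhc had 82.0 against 59.3 CPM (1.38) and Sdha, the flavoprotein, 98.6 against 82.5 CPM (1.19). Under every setting tried these 4 and Cox5a stayed above 1 in macrophages. Atp5g3, a c-ring gene, had 224 against 145 CPM (1.55, 1.46 to 1.63), Ndufs4 72.0 against 47.3 CPM (1.52, 1.38 to 1.68) and Ndufc2 211.5 against 145 CPM (1.46). Ndufa4l2, a hypoxia-induced relative of Ndufa4, had a ratio of 2.41 (1.20 to 5.65) on 34 and 10 UMIs. Atp5s, named for complex V but listed in RefSeq as Dmac2l, had 1.61 (1.02 to 2.67) on 60 and 27 UMIs.

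Ndufa4 was the abundant member that went the other way. Its gene (chr6:11900292-11907497, minus strand) is named for complex I, though its protein was later placed in complex IV. It had 227 CPM in allograft macrophages, 324 in native and 418 in spleen macrophages, so the allograft was lowest, with an allograft to native ratio of 0.70 (0.671 to 0.732). Lower too were Cox6b2 (0.384, 0.274 to 0.530, on 58 and 111 UMIs) and Cox7a1 (0.656, 0.455 to 0.943, on 60 and 67 UMIs), both rare here. Ndufa7 (0.873) and Ndufa1 (0.941) were the only other measured members under 1.

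**Figure D4:**
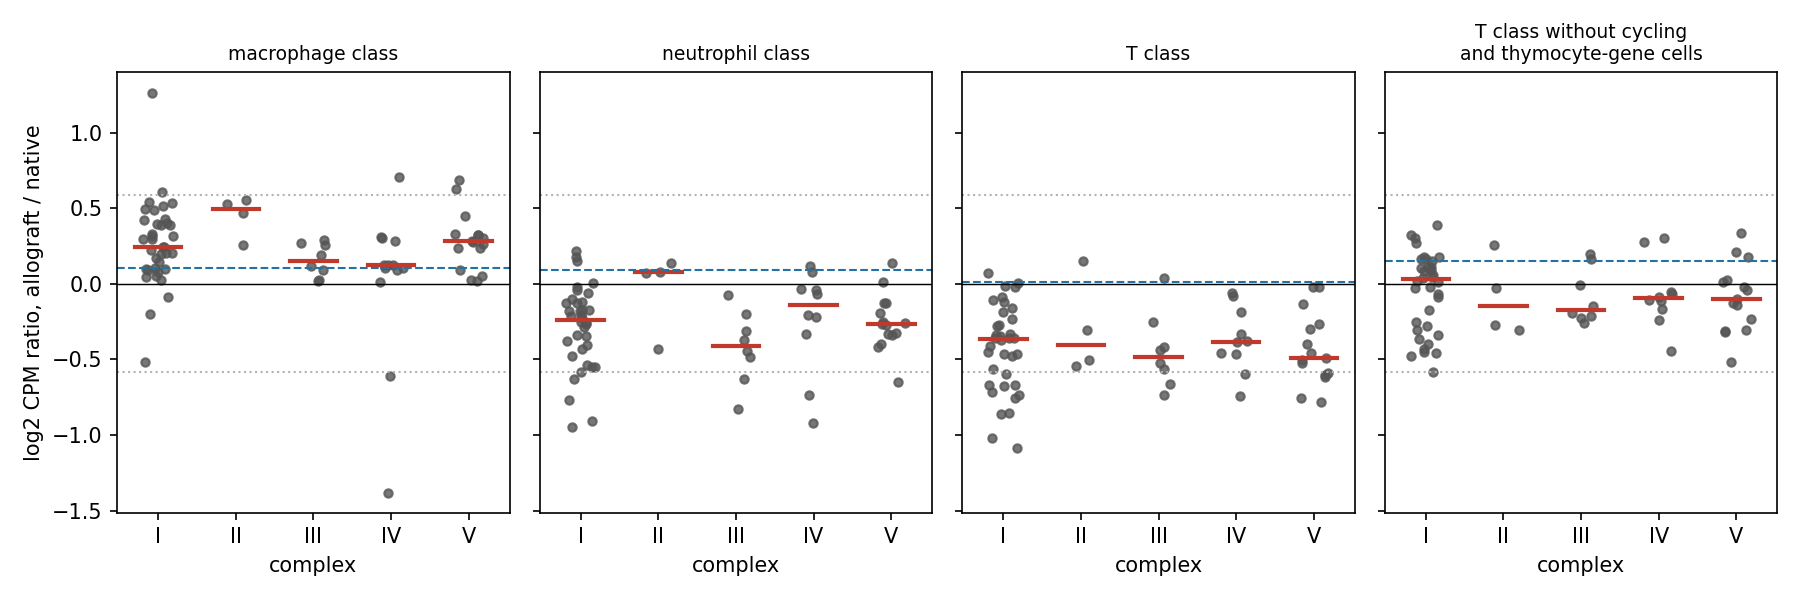
Log2 ratio of CPM, allograft over native, for each measured member (points) by complex, in 3 classes and in the T class after cycling and thymocyte-gene cells were left out. Red bars are medians per complex, the blue dashed line is the median of all genes measured and dotted lines mark 1.5-fold; points lie mostly above 0 in macrophages and below it in neutrophils and T cells, and around 0 in the last panel.

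Other mitochondrial gene lists had similar medians in the macrophage comparison. Of all genes measured there, 15.2% were higher by 1.5-fold and 12.8% lower. The median log2 ratio was 0.33 over 10 respiratory genes outside the name pattern, of which 1 was 1.5-fold higher and 0 lower; Cycs, cytochrome c, had a ratio of 1.35 and Atpif1, the inhibitor of the ATP synthase, 1.003. It was 0.32 over 47 assembly factors (8 higher, 0 lower), with Coa5 at 2.09 and Cox15 at 1.87 against Cox16 at 0.706. It was 0.30 over 16 citric acid cycle genes (0 higher, 0 lower), with Fh1, fumarase, at 0.736. It was 0.30 over 77 mitochondrial ribosomal protein genes (11 higher, 0 lower). Among 13 regulators of mitochondrial genes the median was 0.11, with 3 higher and 2 lower: the coactivators Ppargc1b and Pprc1 had ratios of 1.74 and 0.521. Cytosolic ribosomal protein genes had a median of -0.04 over 95 genes.

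Glycolysis genes differed more. Their median was 1.15 over 16 genes, of which 11 were higher by 1.5-fold and 0 lower, with summed levels of 4677 CPM in the allograft and 2138 in native macrophages. Of all genes measured in macrophages, 15.2% were higher in the allograft by 1.5-fold and 12.8% lower. Slc16a3, a lactate exporter, had a ratio of 3.99 and Pgk1 3.33, while the hexokinases Hk1 and Hk2 had 0.815 and 0.877. Hypoxia target genes had a median of 0.99 over 10 genes. Immediate early and heat shock genes, which respond to cell isolation, had a median of -0.95, with 9 of 10 lower by 1.5-fold in the allograft and summed levels of 3556 against 6796 CPM. Their part in the member ratios was not tested.

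Macrophages of the allograft and of native trachea differed in makeup. Cells with 2 or more of Gpnmb, Spp1, Mmp12 and Trem2 (the Gpnmb Spp1 gate) were 42.5% of the class in the allograft and 9.86% in native trachea. Cells with 2 or more of Lyve1, Cd163, Folr2 and Vsig4 were 3.23% and 54.1%. Cells with 2 or more UMIs of Arg1 or Nos2 were 7.55% and 0.108%. In the 1160 allograft and 699 native macrophages outside all 3 gates the median log2 ratio of members was 0.12, below that of all genes (0.22), and the summed ratio was 1.06 (1.05 to 1.07). There 5 of 76 members were higher by 1.5-fold (21.0% of genes) and 0 lower (7.79%). In these cells Cox5a stood at 1.55 (1.46 to 1.64), Atp5g3 at 1.65 (1.51 to 1.81), Sdhd at 1.43 (1.26 to 1.63) and Ndufa4 at 0.748 (0.698 to 0.801). In the Gpnmb Spp1 gate (935 and 182 cells) the median was 0.26 against 0.15 for all genes, with 6 of 77 members 1.5-fold higher (21.0% of genes) and 1 lower (10.1%). Cox5a stood at 1.43 there and Ndufa4 at 0.694.

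Within the allograft, macrophages in the Gpnmb Spp1 gate had 16160 CPM of the 79 genes against 14331 outside it (1.13, 1.12 to 1.14). Their median log2 ratio was 0.18 against 0.01 for all genes, 72 of 78 members were above 1 (51.9% of genes), and 2 differed by 1.5-fold (13.9% of genes did). Gate cells were deeper, with a median of 9193 UMIs against 5607. The Arg1 Nos2 gate, whose genes code for the enzymes that use arginine, held 166 cells. Of these, 118 also met the Gpnmb Spp1 gate, so the gates overlap. Cells of the Arg1 Nos2 gate had 14961 CPM against 15366 outside (0.974, 0.962 to 0.986). Their median was -0.06, close to that of all genes (-0.05), with 3 members 1.5-fold apart where 25.4% of genes were. In the same cells the mt- genes stood at 34830 against 52359 CPM (0.665), and 15 of 16 glycolysis genes were 1.5-fold higher, with a median of 1.10. Nuclear and mt- genes of the pathway therefore differed by unlike amounts in the Arg1 Nos2 gate.

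Ndufa4 was 1 of the 2 members 1.5-fold lower in the Arg1 Nos2 gate, with 113 CPM against 240.5 outside (0.471, 0.407 to 0.540); the other was Cox6b2 (0.377). AA467197, a paralog of Ndufa4 known to be induced in inflamed cells, was added after values were seen. Its CPM was 396 in the Arg1 Nos2 gate and 75.3 outside, a ratio of 5.25 (4.79 to 5.76). In the whole macrophage class it had 109 CPM in the allograft, 26.3 in native trachea and 3.17 in spleen, from 1926, 340 and 1 UMIs, an allograft to native ratio of 4.14 (3.69 to 4.67). Outside all 3 gates its ratio was 1.504 (1.28 to 1.77). Among the classes of each library with 50 or more cells, neutrophils were highest in AA467197 and lowest in Ndufa4. They had 608, 699 and 322 CPM of AA467197 and 69.0, 130 and 209 CPM of Ndufa4 in allograft, native trachea and spleen. T cells had 100, 34.6 and 2.52 CPM of AA467197 and 276, 467 and 415 CPM of Ndufa4. In the erythroid class, with 875 CPM of Ndufa4, no AA467197 UMI was found. The pattern of the pair across classes was noticed in these data and is given as a description.

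**Figure D5:**
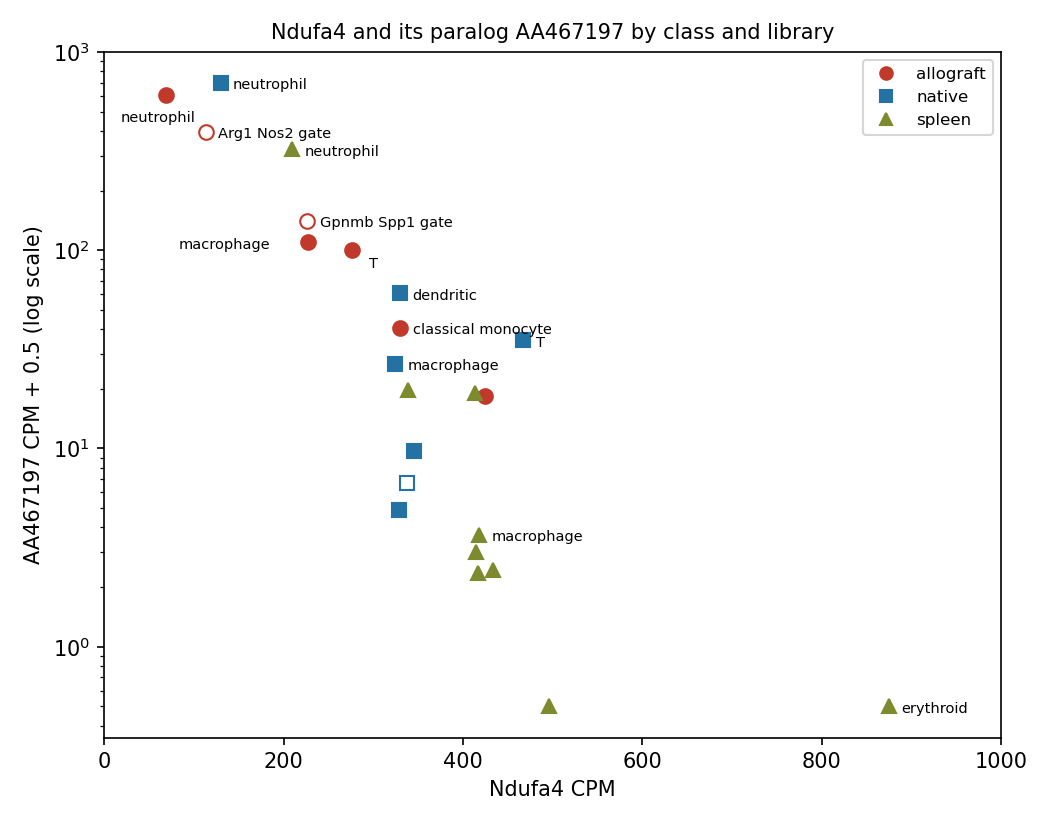
CPM of Ndufa4 (horizontal) and of its paralog AA467197 plus 0.5 (vertical, log scale) in each class and library with 50 or more cells; open symbols are gates within the macrophage class. Neutrophils and the Arg1 Nos2 gate are at the upper left, with 69.0 to 209 CPM of Ndufa4, and the erythroid class is at the lower right with 875 CPM.

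In the neutrophil class the members were lower in the allograft than in native trachea. The summed levels were 7637 and 9057 CPM, a ratio of 0.843 (0.821 to 0.866), and the mt- genes were lower by more, at 12321 against 22662 CPM (0.544). The median log2 ratio was -0.25 over 73 measured members and 0.09 over all genes. Of these 73, 9 were lower by 1.5-fold or more (8.83% of genes were) and 0 higher (13.8%). The intervals of 16 members lay under 1 (9.74% of genes) and those of 0 above it (18.5%). Cox7c, a small complex IV subunit, had 91.4 CPM in the allograft, 174 in native trachea and 269 in spleen neutrophils, an allograft to native ratio of 0.528 (0.415 to 0.663). Ndufa4 had 69.0 against 130 CPM (0.534, 0.404 to 0.695), Uqcrb 37.6 against 67.3 CPM (0.563) and Cox7a2l, which helps join complexes III and IV, 69.0 against 115 CPM (0.601). Atp5j2 had a ratio of 0.638. The highest ratios, Ndufb6 (1.16, 0.775 to 1.72) and Ndufa6 (1.13), did not exceed counting error, and the complex II genes stood at 0.740 for Sdha, 1.05 for Sdhb, 1.10 for Sdhc and 1.06 for Sdhd, each with an interval that included 1. Cytosolic ribosomal protein genes had a median of -0.45 and glycolysis genes of 0.42 in this comparison. Thinning each cell to 1500 UMIs, which kept 400 allograft and 520 native neutrophils, left a member median of -0.04, against 0.10 for all genes.

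Spleen neutrophils stood above those of trachea in the summed level, at 11657 CPM. The members' median log2 ratio was -0.88 for allograft against spleen and -0.59 for native against spleen. By 1.5-fold, 54 of 73 members were lower in the allograft (34.9% of genes) and 0 higher (27.6%). In native trachea 37 of 73 were lower (36.8% of genes) and 0 higher (24.0%). Both use the same spleen cells. Of 249 spleen neutrophils 6 were cycling. Without these the spleen level was 9362 CPM, and the medians were -0.48 for the allograft and -0.09 for native trachea. Lower were then 29 of 70 members in the allograft (28.1% of genes) and 9 of 72 in native trachea (29.0%), and higher 2 (31.0%) and 6 (28.2%).

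T cells of the allograft had lower levels than those of native trachea. The summed levels were 14932 CPM (14749 to 15117) in the allograft, 19323 (19090 to 19558) in native trachea and 16155 (16046 to 16265) in spleen. The allograft to native ratio was 0.773 (0.760 to 0.786), with a median log2 ratio of -0.42 over 73 members and 0.01 over all genes. Lower by 1.5-fold were 20 members (18.1% of genes were) and higher 0 (18.9%), and 4 were above 1 (50.8% of genes). Ndufa12, an accessory complex I subunit, had 69.5 CPM in the allograft, 148 in native and 94.8 in spleen T cells (allograft to native 0.471, 0.371 to 0.593). Ndufc1 (0.492), Ndufb6 (0.550), Ndufc2 (0.553) and Atp5k (0.582) followed, and Atp5b, the catalytic beta subunit of the ATP synthase, had 377 against 635.5 CPM (0.593). Sdha (1.11, 0.859 to 1.44) and Ndufs1 (1.05) were the highest.

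That difference came with a difference in makeup. Cycling cells, or cells with Rag1, Rag2, Dntt or Ptcra or with both Cd4 and Cd8b1, genes typical of thymocytes, were 16 of 374 T cells in the allograft (4.28%), 88 of 205 in native trachea (42.9%) and 30 of 1114 in spleen (2.69%). In native trachea these cells had 23366 CPM of the 79 genes, and the 33 cycling ones among them 25984. Without such cells the summed levels were 14481 CPM in 358 allograft cells and 15024 CPM in 117 native cells, a ratio of 0.964 (0.941 to 0.987). The median was then -0.05, against 0.15 for all genes, and 0 members were 1.5-fold apart where 31.6% of genes were. Ndufa12 stood at 0.792 (0.567 to 1.13), and Ndufa4 at 0.730 (0.619 to 0.864). Against spleen, T cells had a median of -0.11 for the allograft and 0.32 for native trachea. Allograft T cells had 4 of 74 members 1.5-fold lower (22.0% of genes) and 0 higher (26.6%), and native T cells 18 of 75 higher (27.6%) and 1 lower (22.7%). Mitochondrial ribosomal protein genes had a median of -0.32 between all allograft and native T cells and 0.10 without the cycling and thymocyte-gene cells.

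Other pairs of libraries could be compared in few classes. NK cells of the allograft stood below those of spleen, with 15621 against 18236 CPM and a median log2 ratio of -0.26 (-0.02 for all genes). Of 73 members 14 were lower by 1.5-fold (23.2% of genes) and 0 higher (22.7%). B cells of native trachea, 56 cells, had 13078 against 16471 CPM in spleen and a median of -0.39, near the -0.34 of all genes, with 17 of 75 lower (40.1% of genes) and 0 higher (16.2%). Macrophages of the allograft had a median of -0.10 against the 84 of spleen (-0.30 for all genes), with 6 of 78 members lower (39.0% of genes) and 0 higher (19.9%). Native macrophages had -0.33 (-0.40 for all genes), with 17 of 75 lower (43.3% of genes) and 0 higher (22.0%).

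Cycling cells carried more transcripts of these genes within a library. In the spleen B class 135 cycling cells had 24630 CPM of the 79 genes and 2098 others 14287, a ratio of 1.72 (1.71 to 1.74), while the mt- genes were lower, at 57209 against 74372 CPM (0.769). The median log2 ratio was 0.86 and that of all genes -0.01. Higher by 1.5-fold were 58 of 75 members (26.4% of genes were) and lower 0 (27.0%). Uqcr11, a small complex III subunit, had 392.1 against 143 CPM (2.74, 2.54 to 2.96), Ndufa12 249 against 95.9 CPM (2.60) and Atp5g1 535 against 211 CPM (2.54). Against that, Ndufa6 (0.794, 0.713 to 0.882) and Cox7a2l (0.848, 0.791 to 0.907) were lower in cycling cells. Of the 135 cells 6 also had 3 or more erythroid markers. Without these the median was 0.79 with 53 members higher by 1.5-fold (24.7% of genes) and 0 lower (27.5%).

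In allograft macrophages 55 cycling cells had 22976 CPM and 2145 others 14943 (1.54, 1.52 to 1.56). The median was 0.68 against 0.14 for all genes, with 50 of 78 members higher by 1.5-fold (27.4% of genes) and 3 lower (17.4%). The 3 lower ones, Cox6a2, Ndufa4l2 and Cox6b2, rested on 0, 0 and 1 UMIs in cycling cells, and their intervals included 1. Ndufs7, a core complex I subunit, had 186 against 84.1 CPM (2.22, 1.87 to 2.62), Ndufv2 a ratio of 2.20, Atp5o, of the stalk of the ATP synthase, 2.19 and Atp5g1 2.12. Cox7a2l had the lowest ratio among members with 100 or more UMIs, 0.876 (0.765 to 0.996). Cycling cells were deeper than the rest, with a median of 13426 against 6769 UMIs, and the part of depth and of doublets was not tested.

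Several subunits come as gene copies whose use differed between classes. For the identical mature c-ring protein, Atp5g1 made up 46.8% of the UMIs of its 3 genes in erythroid cells (45.3 to 48.4), 44.9% in native fibroblasts (43.5 to 46.2) and 43.6% in plasma cells (40.7 to 46.6). In T, B and NK cells its share was 21.4% to 25.1% and Atp5g2 led, with 45.0% to 58.9%. Macrophages of the allograft and native trachea had 28.7% and 31.1% of Atp5g1. Nearly all erythroid cells met the cycling gate. Between cycling and other allograft macrophages the ratio was 2.12 for Atp5g1, 1.55 for Atp5g2 and 1.73 for Atp5g3. The part of cycling in the shares was not tested.

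Rare isoforms differed in how many cells held them. In spleen the UMIs of Cox6a2 lay in 27 cells. In native trachea those of Cox6b2 lay in 387 cells, of Cox7a1 in 95 and of Cox8b in 52. Cox6a2, the form of heart and skeletal muscle, had 90, 34 and 249 UMIs in allograft, native trachea and spleen. Of the 249 in spleen, 218 (87.6%) were in 17 cells that held 3 or more of Siglech, Klk1, Pacsin1, Runx2 and Ccr9, genes of plasmacytoid dendritic cells, at 1800 CPM, and most of these cells had been placed in the classical monocyte class. In the allograft 30 of the 90 were in 4 such cells, 41 in the macrophage class and 19 in the NK class. In native trachea 0 of the 34 were in such cells and 28 were in the macrophage class. Cox6b2, known from testis, had 397 of its 646 spleen UMIs (61.5%) in the erythroid class, at 217 CPM, and 325 of 535 native UMIs (60.7%) in fibroblasts. In cycling spleen B cells 81 of 98 Cox6b2 UMIs were in the 6 cells with erythroid markers. Cox8b, a muscle and brown fat form, had 51 of 54 native UMIs in fibroblasts, and 1 UMI in the allograft. Ndufa4l2 had 312 of 333 native UMIs (93.7%) in fibroblasts, at 31.3 CPM, and 146 UMIs in 46 cells of the allograft. Cox7a1, the muscle form of that subunit, had 70, 100 and 26 UMIs.

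Over all cells, the members had 14922 CPM in the allograft, 13789 in native trachea and 16930 in spleen, and a median log2 ratio of allograft to native of 0.15 (all genes 0.04). By 1.5-fold 2 of 79 were higher (15.8% of genes) and 3 lower (23.5%). The higher 2 were Cox6a2 (3.12, on 90 and 34 UMIs) and Cox5a (454 against 267 CPM, 1.70). The lower 3 were Cox8b (0.0327, on 1 and 54 UMIs), Cox6b2 (0.188) and Ndufa4l2 (0.523), whose native UMIs lay mainly in fibroblasts, a class of 947 native and 39 allograft cells. In a comparison of all cells, fewer cells of a type and less RNA per cell cannot be told apart.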

How the data were processed

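The deposited values were raw UMI counts per gene and barcode, 1 matrix per source, made by the authors with Cell Ranger 3.1.0, per the file headers, on mm10, per the submitters' processing notes. How reads shared with pseudogenes or near-identical copies were counted is not given in the sources used here, so levels of such genes are uncertain. Cells needed at least 500 genes and at most 20% of UMIs from mt- genes, and scrublet (scanpy 1.11.5, anndata 0.12.19) marked doublets for removal. Cells were gated into 17 classes by 8 markers each, without clustering. Per class and library, UMIs were summed and scaled to CPM with exact Poisson intervals, and shares of UMIs had exact binomial (Clopper-Pearson) intervals. Ratios had 0.5 UMI added to each sum and exact conditional binomial 95% intervals, and needed 30 UMIs over both sets. A ratio of 1.5 or more in either direction was counted. No test was possible with 1 library per source. Named members are the 5 highest and 5 lowest ratios with 100 or more UMIs, gene copies, the Sdh genes and the widest and narrowest ranges; others are named as examples chosen after their values were seen. The members and lists were chosen with earlier results of these data known. The computation was checked on simulated counts. Gene positions are from GENCODE release M21 and promoters from RefSeq. Computation used scipy 1.17.1, pandas 2.3.3, numpy 2.4.6 and matplotlib 3.10.9 under Python 3.11.15. The alternatives were other cell filters, gates, scalings, weights, thinning, a minimum of 100 UMIs and sets of cells left out.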

Additional observations from a re-analysis of the deposited data

Results flagged for a closer look

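The median log2 ratio of the members, allograft over native, had opposite signs in different classes: 0.25 in macrophages against -0.25 in neutrophils, and 0.25 in macrophages against -0.42 in T cells. With 1 library per source the difference between classes was not tested. The medians of all genes measured were 0.11, 0.09 and 0.01 in the 3 classes. No member was 1.5-fold or more apart in opposite directions in macrophages and either other class.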

How the results depend on the processing

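No paired analysis was possible because the 4 samples of each source are pooled in 1 matrix and their numbers were given in accession order, and for the same reason no replicate could be left out. The member medians, allograft against native, kept their sign under every setting run. They and the counts of members 1.5-fold apart moved by over 1.5 times as follows. Over all cells the median of 0.15 became 0.0454 after thinning to 1500 UMIs, 0.00868 as a mean of per-cell CPM and 0.07 without cells over 3 times the median UMIs of their class. In macrophages the median of 0.25 became 0.14 with scaling by the median of ratios, 0.12 outside the 3 gates, 0.15 after thinning and 0.16 as a mean of per-cell CPM. In neutrophils the median of -0.25 became -0.04 after thinning, -0.10 without cells over 3 times the median UMIs, -0.15 as a mean of per-cell CPM and -0.11 with a limit of 10% mitochondrial UMIs, which also took the count of 9 to 4. In T cells the count of 20 became 12 as a mean of per-cell CPM, 1 without cycling cells (median -0.17), 8 without cells over 3 times the median UMIs and 0, with a median of -0.0505, without cycling and thymocyte-gene cells. The settings that left out cells (cycling, thymocyte-gene, deep or gated ones) were chosen after seeing the data. As a mean of per-cell CPM 3 members were higher and 3 lower in macrophages, and 2 higher and 9 lower in neutrophils. Over all settings the medians ranged from 0.12 to 0.26 in macrophages, -0.34 to -0.04 in neutrophils and -0.45 to -0.05 in T cells. Of 1161 ratios of named members recomputed, 1022 moved by less than their counting interval and 139 by more, and 66 fell on the other side of 1. Among them are Cox6a1 and Cox7b in macrophages and the Atp5g genes in neutrophils. With few UMIs per neutrophil, members under about 30 UMIs could not be compared there.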
